A study of Mus musculus with 6 samples.

Results

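The genes described here are 34 genes of macrophages, monocytes and antigen presentation, measured in the fetal mouse lung. They were chosen by name, as markers of these cells and parts of their machinery, and were taken from the arrays through the accession of each probe. Of the 34 genes, 32 had a matched probe and all 32 passed the filter on low signal, out of 19867 genes and other features tested. Of the 32, 31 were above background on all 6 arrays, and Gpnmb passed the filter through the wild types alone. Cd68, a lysosomal scavenger receptor, and H2-Eb1, a class II beta chain, were not analysed here. The 32 genes fall into lysozymes (2 genes), C1q chains (3), scavenger receptors and the mannose receptor (4), MHC class II (3), Fc receptors and adaptors (5), surface receptors and integrins (8), lysosomal, phagosomal and cytoplasmic proteins (6) and the transcription factor Spi1.

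The study set 3 lungs of embryos without Dppa2, a nuclear protein known from pluripotent cells and also called ECAT15-2, against 3 wild type lungs at E18.5, shortly before birth. The knockout embryos were 15-1Flox/Flox and 15-2-/-, where 15-1 is ECAT15-1 (Dppa4), and the wild types were 15-1+/+ and 15-2+/+, so that the floxed allele went with the null allele in all 3 knockouts. Per the labels, the parents were heterozygous for both alleles, and the line came from 129Sv stem cells, matings to C57/BL6 and 1 mating to a Cre or FLPe transgenic of a background not known. RNA of 1 whole lung was hybridised to 1 Agilent array with 1 colour. Nothing in the labels gives sex or litter. Levels are log2 intensities relative to the 75th percentile of the array, so that 0 is that percentile, and levels of different probes are not comparable.

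Several features of the arrays run with the groups in part. Between 63.3% and 68.8% of probes lay well above background on knockout arrays, against 66.1% to 66.6% on wild type arrays. Knockout 3 shared slide 1 with wild types 1 and 2, while knockouts 1 and 2 shared slide 3 and wild type 3 was on slide 2. Knockout 3 and wild type 3 carried the same number in their submitted file names, which differed from the number of knockouts 1 and 2 and from that of wild types 1 and 2. What this number stands for is not given in the labels. Xist, the RNA of the inactive X chromosome, was above background in the 3 knockouts and in wild type 3, while wild types 1 and 2 had signal from 4 Y-linked genes and none from Xist, so wild type 3 was the single wild type of the knockouts' sex. The Dppa2 probe read -4.94, -4.98 and -4.08 in knockouts 1, 2 and 3, against -3.25, -3.52 and -3.57 in wild types 1, 2 and 3. The groups did not overlap, with a difference of -1.22 and an adjusted p of 0.0604 (limma). Its signal was above background on all 6 arrays, the knockouts included. The position of that probe relative to the deletion was not looked up, and Dppa4 gave no signal above background on any array. All 7 lung genes looked up as a check of the tissue, among them Nkx2-1 and Sftpc, were above background on all 6 arrays.

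Macrophages of the lung arise before birth from yolk sac and fetal liver precursors. Fetal monocytes enter the lung late in gestation, and they mature into alveolar macrophages around birth. Growth and survival of the lineage depend on the receptor Csf1r, and its identity depends on the transcription factor PU.1, the product of Spi1. The cells take up particles through Fc, complement and scavenger receptors, degrade them in lysosomes, and can show peptides on MHC class II to T cells. Several of the genes are not limited to macrophages: in the mouse lung the lysozyme genes are also active in alveolar type 2 cells, which make surfactant, and Cd74 and class II genes also in B cells and dendritic cells.

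Promoter sequences from RefSeq (build GRCm38.p6) were found for 24 of the 34 genes, and 4 are shown because Gpnmb and the lysozymes had 3 of the 4 widest differences among the genes and H2-Aa stands for class II. Each runs from 250 bases before the annotated start to 50 bases after it. The promoters of Lyz1 at chr10:117292819-117293118 (minus strand) and Lyz2 at chr10:117282223-117282522 (minus strand) are printed with the longest run that both share, 86 bases, in capitals.
Lyz1: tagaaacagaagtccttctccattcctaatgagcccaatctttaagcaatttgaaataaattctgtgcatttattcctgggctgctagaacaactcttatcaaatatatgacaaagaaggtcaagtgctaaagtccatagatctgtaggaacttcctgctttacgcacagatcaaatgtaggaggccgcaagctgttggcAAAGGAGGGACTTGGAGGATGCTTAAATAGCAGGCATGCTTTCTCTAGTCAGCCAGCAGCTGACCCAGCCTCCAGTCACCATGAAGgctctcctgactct
Lyz2: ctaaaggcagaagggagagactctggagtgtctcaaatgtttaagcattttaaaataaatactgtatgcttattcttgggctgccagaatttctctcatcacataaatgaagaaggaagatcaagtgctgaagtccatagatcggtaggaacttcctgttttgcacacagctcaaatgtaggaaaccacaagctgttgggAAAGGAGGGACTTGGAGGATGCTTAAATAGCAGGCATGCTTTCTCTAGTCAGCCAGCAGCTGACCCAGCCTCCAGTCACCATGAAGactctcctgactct
An alignment of the 2 windows matched 249 of 298 aligned bases (83.6%), so the neighbouring genes have closely related starts. The Gpnmb window at chr6:49036268-49036567 (plus strand) is printed with its match to the AP-1 motif TGACTCA in capitals, a motif chosen after the sequence had been read. That motif was in 5.2% of all 32851 promoter windows of this length.
Gpnmb: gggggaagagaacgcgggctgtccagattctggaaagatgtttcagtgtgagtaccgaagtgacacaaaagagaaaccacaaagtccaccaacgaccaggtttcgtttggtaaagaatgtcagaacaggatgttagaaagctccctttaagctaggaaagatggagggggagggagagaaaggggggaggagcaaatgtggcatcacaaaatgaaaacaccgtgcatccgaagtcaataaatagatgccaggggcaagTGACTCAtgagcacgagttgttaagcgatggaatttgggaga
The H2-Aa window at chr17:34287774-34288073 (minus strand) holds 1 match to CCAAT on the opposite strand, the core of the Y box of class II promoters, printed in capitals. CCAAT on either strand was in 12 of the 24 genes' windows, and in 37.4% of all windows.
H2-Aa: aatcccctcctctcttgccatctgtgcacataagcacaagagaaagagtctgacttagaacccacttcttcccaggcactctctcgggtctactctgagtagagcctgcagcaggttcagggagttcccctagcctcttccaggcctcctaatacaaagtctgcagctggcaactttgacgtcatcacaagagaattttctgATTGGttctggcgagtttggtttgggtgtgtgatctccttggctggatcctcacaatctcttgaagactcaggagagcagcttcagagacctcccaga
The purine-rich letters GAGGAA, found in many binding sites of PU.1, were in the windows of 13 of the 24 genes (54.2%) and in 28.3% of all windows on either strand. The longer form GAGGAAGT was in C1qc and Ctss and in 3.2% of all windows, and overlaps GAGGAA by its own letters. For every motif a gene was counted once if any window of it matched, while the shares of all windows count single windows. Those shares are therefore not in like units. Such matches describe the letters in a window and not a binding site.

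Of the 32 genes, 26 had a negative difference (knockout minus wild type) and 6 a positive one, where 48.9% of all features were negative. Gpnmb fell and was the single gene of the 32 past the threshold (limma, Benjamini-Hochberg adjusted p under 0.05 over all features). That gene passed the filter through the wild types alone, and its fitted p rests on knockout values below background. Across the array 1.34% of features passed (267 of 19867, of which 144 were higher and 123 lower, or 0.725% and 0.619%), and 62 were higher and 136 lower with quantile normalization. The median difference was -0.25 over the 32 genes and 0.0083 over all features. An unadjusted p under 0.05 was found for 13 of the 32 genes, 12 of them lower, against 25.7% of all features (10.3% lower and 15.4% higher). The groups did not overlap in 9 of the 32 genes, with 7 lower and 2 higher, against 31.3% of all features (14.3% lower and 17% higher). In whole lung RNA, fewer cells of a type and less RNA per cell cannot be told apart.

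**Figure D1:**
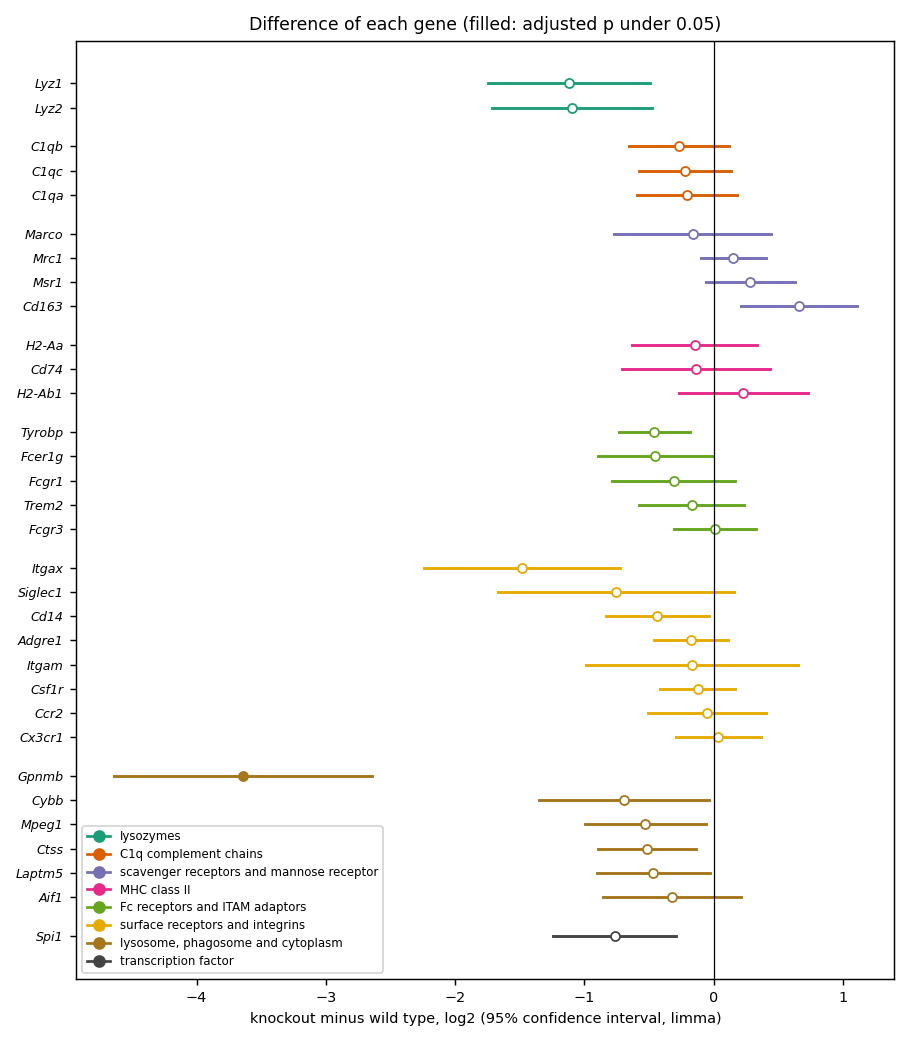
Difference of each of the 32 genes (knockout minus wild type, log2, n = 3 each) with its 95% confidence interval from limma, grouped and coloured by role. Filled points passed the threshold, which holds for Gpnmb. The interval of Gpnmb rests on knockout values below background and gives no size. The lysozymes and Itgax lie farthest below 0 among the open points.

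Gpnmb encodes a membrane glycoprotein of macrophage lysosomes, dendritic cells and pigment cells. Its probe read -7.43, -7.16 and -8.66 in knockouts 1, 2 and 3, against -4.26, -3.53 and -4.53 in wild types 1, 2 and 3. It lay well above background in all 3 wild types and in 0 of 3 knockouts, with no overlap. With each knockout value raised to the lowest signal called above background on its array, the fall was 4.69-fold. This is not a firm lower bound, since the limit for a single probe can lie higher. The fitted adjusted p was 0.0188 (limma, n = 3 each). Without knockout 1, wild type 1 or wild type 2 the gene missed the threshold (adjusted p = 0.057, 0.0999 and 0.069). Since no knockout value lay above background, fitted differences give no size, and normexp background correction gave -1.19 against -3.64 in the main setting. Its other probe was above background on 0 of 6 arrays. Among genes of pigment cells, 3 of 5 with a probe were tested, with differences from 0.043 to 0.45, all positive, and Tyr and Tyrp1 were below background.

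The lysozymes Lyz1 and Lyz2 encode secreted enzymes that cleave bacterial cell walls. Lyz1 read 4.25, 4.27 and 5.08 in knockouts 1, 2 and 3, against 5.75, 5.93 and 5.29 in wild types 1, 2 and 3. Lyz2 read 0.52, 0.59 and 1.15 in knockouts 1, 2 and 3, against 2.16, 2.06 and 1.34 in wild types 1, 2 and 3. For both genes all 3 knockouts were below all 3 wild types, with knockouts 1 and 2 lowest and knockout 3 next to wild type 3. The difference was -1.12 for Lyz1 (SE 0.27, adjusted p = 0.0734) and -1.10 for Lyz2 (SE 0.26, adjusted p = 0.0746), and neither passed. Between knockout 3 and wild type 3 these differences were -0.22 and -0.19. Lyz1 passed without knockout 3 (-1.39, adjusted p = 0.0347). Both passed without wild type 3 (-1.30 and -1.35), a fit that leaves no wild type of the knockouts' sex. Whether each probe tells the 2 related transcripts apart is not known here. Of 9 tested alveolar type 2 genes, 7 had negative differences, with a median of -0.22 and none past the threshold. Their summed level was 302 to 340 times the 75th percentile on knockout arrays, against 297 to 363 on wild type arrays. The brightest probes weigh most in such a sum. The part of alveolar type 2 cells, or of neutrophils, in the lysozyme values was not tested.

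C1qa, C1qb and C1qc encode the 3 chains of C1q, the part of complement that binds immune complexes and dying cells and that tissue macrophages make. C1qa read 0.25, 0.17 and 0.71 in knockouts 1, 2 and 3, against 0.67, 0.62 and 0.46 in wild types 1, 2 and 3. The third knockout was above all 3 wild types for this gene, while knockouts 1 and 2 were below them. The differences were -0.21 (C1qa; 95% confidence interval -0.60 to 0.18), -0.27 (C1qb; -0.66 to 0.11) and -0.22 (C1qc; -0.58 to 0.13), and none passed (adjusted p from 0.333 to 0.452). Between knockout 3 and wild type 3 the 3 chains differed by 0.25, 0.23 and 0.14, the opposite sign. The slide as a block turned C1qa and C1qc to 0.059 and 0.026.

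Scavenger receptors bind modified lipoproteins, haemoglobin complexes and microbes, and the mannose receptor Mrc1 binds glycoproteins. This group had a positive median difference of 0.22, with 3 of 4 genes above 0. Cd163, the receptor for haptoglobin-bound haemoglobin, read -2.44, -2.66 and -2.53 in knockouts 1, 2 and 3, against -3.23, -3.56 and -2.83 in wild types 1, 2 and 3. All knockouts were above all wild types, and the difference was 0.66 (SE 0.19, adjusted p = 0.0988). Msr1, the class A scavenger receptor, read -2.21, -2.62 and -2.59 in knockouts 1, 2 and 3, against -2.62, -2.84 and -2.80 in wild types 1, 2 and 3. The difference was 0.28 (adjusted p = 0.265; other probes, 0.17 and 0.012). The groups did not overlap at this probe, but knockout 2 (-2.617) was barely above wild type 1 (-2.623). At both other probes the groups overlapped. Mrc1 differed by 0.15 (-0.10 to 0.40). Marco, a collagenous receptor of alveolar macrophages, read 0.39, 0.29 and 0.74 in knockouts 1, 2 and 3, against 0.83, 1.01 and 0.067 in wild types 1, 2 and 3. Its wild types spread wider than the group difference of -0.16 (adjusted p = 0.718), with the third wild type lowest of all 6 arrays. Cd163, Msr1 and Mrc1 kept positive differences under every setting tried, and Cd163 passed in 1 of them, without wild type 3 (0.85, adjusted p = 0.0284). That fit leaves no wild type of the knockouts' sex.

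MHC class II molecules present peptides from engulfed material, and Cd74 is the invariant chain that guides them to the endosome. Cd74 read 1.05, 0.50 and 1.06 in knockouts 1, 2 and 3, against 1.40, 1.02 and 0.59 in wild types 1, 2 and 3. H2-Ab1, a beta chain, read -0.66, -0.61 and -0.50 in knockouts 1, 2 and 3, against -0.32, -1.05 and -1.09 in wild types 1, 2 and 3. H2-Aa, the partnering alpha chain, read -3.56, -3.26 and -3.06 in knockouts 1, 2 and 3, against -2.76, -3.38 and -3.28 in wild types 1, 2 and 3. In all 3 genes wild type 1 was the highest array and the groups overlapped. The differences were -0.14 (-0.71 to 0.44), 0.23 (-0.27 to 0.73) and -0.15 (-0.63 to 0.33), with adjusted p from 0.528 to 0.755, and 2 further H2-Ab1 probes gave 0.28 and 0.084. Between knockout 3 and wild type 3 all 3 genes were higher in the knockout, by 0.47, 0.58 and 0.23.

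**Figure D2:**
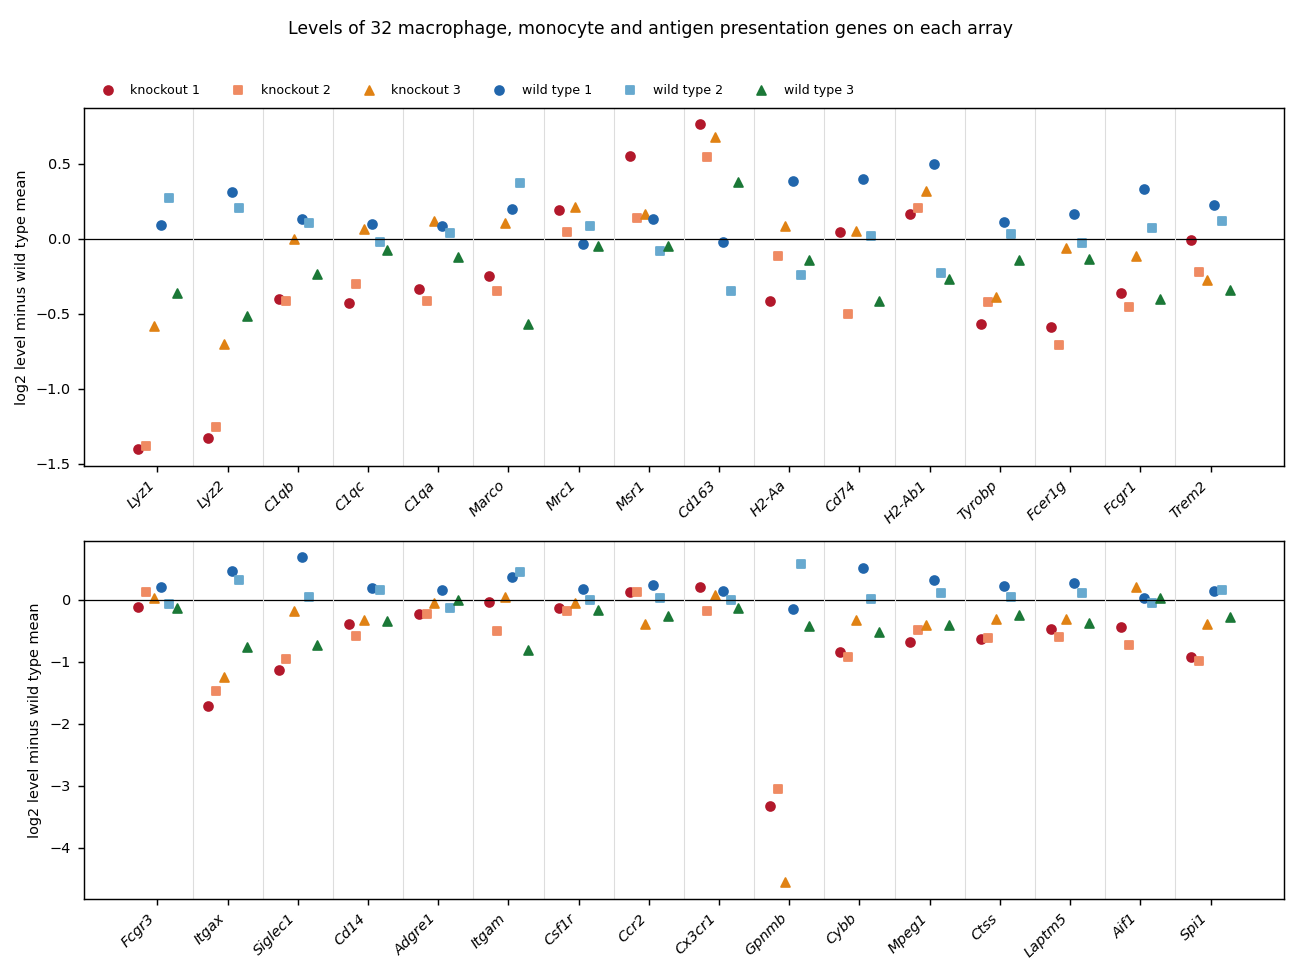
Level of each of the 32 genes on each array, as the log2 level minus the mean of the 3 wild types (vertical axis), with knockout points left of wild type points for each gene. Knockouts 1 and 2 lie lowest for Lyz1 and Lyz2, and the 3 knockouts lie above the 3 wild types for Cd163.

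Fc receptors bind antibody-coated particles, and Fcer1g is the adaptor chain that carries their activating signal. Tyrobp (DAP12) is an adaptor chain of other receptors such as Trem2. Tyrobp read 2.17, 2.31 and 2.34 in knockouts 1, 2 and 3, against 2.84, 2.77 and 2.59 in wild types 1, 2 and 3. The groups did not overlap, and the difference was -0.46 (SE 0.12, adjusted p = 0.0814). Fcer1g read 1.01, 0.88 and 1.53 in knockouts 1, 2 and 3, against 1.76, 1.56 and 1.46 in wild types 1, 2 and 3, with knockouts 1 and 2 below the other 4 arrays and a difference of -0.45 (adjusted p = 0.188). Fcgr1, the high-affinity receptor, differed by -0.31 (adjusted p = 0.367), and Trem2, a lipid receptor that signals through DAP12, by -0.17 (adjusted p = 0.565). Fcgr3, a low-affinity receptor, differed by 0.0092 (-0.30 to 0.32). Its sign turned negative with median scaling, quantile normalization, normexp background correction, the authors' deposited values and the slide as a block. The median of these 5 genes was -0.31.

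Receptors and integrins of the surface ranged from -1.48 to 0.036. Itgax, the CD11c integrin of alveolar macrophages and dendritic cells, read -4.07, -3.83 and -3.61 in knockouts 1, 2 and 3, against -1.90, -2.05 and -3.13 in wild types 1, 2 and 3. Every knockout was below every wild type, wild type 3 lay nearest to the knockouts, and the difference was -1.48 (SE 0.32, 2.79-fold lower, adjusted p = 0.0652). With normexp background correction the difference of Itgax was -1.10. Siglec1, a sialic acid receptor, read -5.38, -5.20 and -4.43 in knockouts 1, 2 and 3, against -3.57, -4.20 and -4.98 in wild types 1, 2 and 3, with wild type 3 between the knockouts (difference -0.76, adjusted p = 0.265). Itgam, the CD11b integrin, had its lowest value in wild type 3, at -5.58, and differed by -0.17 (-0.99 to 0.65). Cd14, a co-receptor for bacterial lipopolysaccharide, read -0.32, -0.50 and -0.25 in knockouts 1, 2 and 3, against 0.27, 0.23 and -0.26 in wild types 1, 2 and 3, with the third array of either group at nearly the same value and a difference of -0.44 (adjusted p = 0.167).

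The other 4 genes of this group had differences from -0.18 to 0.036. Csf1r, the receptor for the growth factors Csf1 and Il34, read 0.68, 0.62 and 0.75 in knockouts 1, 2 and 3, against 0.98, 0.81 and 0.65 in wild types 1, 2 and 3, a difference of -0.13 (-0.41 to 0.16; other probes, 0.082 and -0.30). Adgre1, the F4/80 antigen, differed by -0.18 (-0.46 to 0.11), and a second probe of low signal gave 0.21. The chemokine receptors Ccr2, of monocytes that leave the blood, and Cx3cr1, of resident cells and patrolling monocytes, differed by -0.053 (-0.51 to 0.40) and 0.036 (-0.29 to 0.36). Cx3cr1 turned below 0 with median scaling, quantile normalization and the authors' deposited values. For Csf1r and Adgre1 the intervals leave out a fall to below -0.41 and -0.46, so a fall of the size fitted for Itgax lies outside them.

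All 6 lysosomal, phagosomal and cytoplasmic genes had negative differences, with a median of -0.52. Ctss, a cathepsin that trims the invariant chain in class II compartments, read 3.16, 3.18 and 3.48 in knockouts 1, 2 and 3, against 4.00, 3.84 and 3.54 in wild types 1, 2 and 3. Its groups did not overlap, by a margin of 0.051 between the third arrays, and the difference was -0.52 (SE 0.16, adjusted p = 0.111). Mpeg1, a pore-forming protein of phagosomes, read 2.02, 2.22 and 2.30 in knockouts 1, 2 and 3, against 3.02, 2.82 and 2.30 in wild types 1, 2 and 3, with wild types 1 and 2 above the other 4 arrays (difference -0.53, adjusted p = 0.156). Laptm5, a lysosomal protein of blood cells, differed by -0.47 (adjusted p = 0.174) with wild types 1 and 2 again on top, and by -0.43 at its second probe. Cybb, the membrane subunit of the phagocyte NADPH oxidase, read -2.23, -2.31 and -1.72 in knockouts 1, 2 and 3, against -0.88, -1.38 and -1.91 in wild types 1, 2 and 3. This gene lies on the X chromosome, its difference was -0.70 (adjusted p = 0.177), and the third knockout was above the third wild type by 0.19. Aif1, an actin-binding protein also called Iba1, differed by -0.32 (adjusted p = 0.403). Spi1, which encodes PU.1, read -4.66, -4.72 and -4.13 in knockouts 1, 2 and 3, against -3.60, -3.59 and -4.02 in wild types 1, 2 and 3, with no overlap and a difference of -0.77 (SE 0.20, adjusted p = 0.0864).

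The 32 genes followed single arrays as well as the groups. Wild type 1 was the highest of the 6 arrays for 21 of the 32 genes (65.6%, against 12% of all features), and knockout 1 or 2 was the lowest for 10 and 12 of them. Knockout 3 was above both other knockouts for 25 of the 32 (78.1%, against 28.6%), and wild types 1 and 2 were both above wild type 3 for 27 (84.4%, against 35.7%). The median deviation from the mean of the 6 arrays over the 32 genes was -0.24, -0.29 and 0.027 on the arrays of knockouts 1, 2 and 3, and 0.39, 0.21 and -0.11 on those of wild types 1, 2 and 3. Thus the order from low to high was knockout 2, knockout 1, wild type 3, knockout 3, wild type 2 and wild type 1. Genes expressed together in one cell type are not independent, and these counts, looked up after the values were seen, carry no test.

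**Figure D3:**
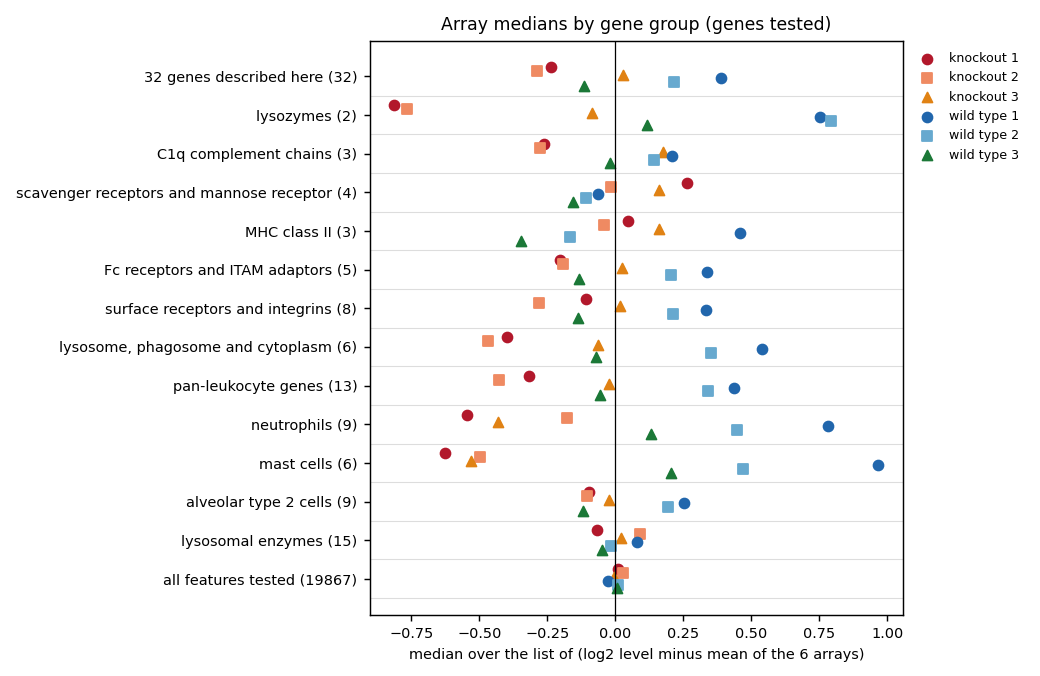
Median over each gene group of the log2 level minus the mean of the 6 arrays (horizontal axis), with 1 point per array and the number of genes tested in parentheses. For the 32 genes described here and the pan-leukocyte genes, knockout 3 and wild type 3 lie between the other knockouts and the other wild types, while the neutrophil and mast cell points of all 3 knockouts lie left of those of all 3 wild types.

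Comparisons inside a shared slide or a shared file name number gave different values. On slide 1, knockout 3 minus the mean of wild types 1 and 2 had a median of -0.25 over the 32 genes, with 23 of 32 negative. Between knockout 3 and wild type 3 the median was 0.15, with 9 negative and 23 positive (71.9%, against 48.5% of all features). Itgax (-0.49), Tyrobp (-0.25), the lysozymes, Spi1 (-0.10) and Gpnmb were among the 9 that stayed negative. With a term for the arrays with Y-linked signal the median was -0.060, and 19 of 32 were negative. That term left Itgax at -0.71, Lyz1 at -0.76, Lyz2 at -0.58, Spi1 at -0.48 and Tyrobp at -0.32, and no gene of the 32 passed. Without wild type 3, 11 of the 32 passed, against 9.93% of all features. These were Cd163 (higher) and Cd14, Ctss, Gpnmb, Itgax, Laptm5, Lyz1, Lyz2, Mpeg1, Spi1 and Tyrobp (lower). In that fit no wild type shared the knockouts' sex or a file name number with a knockout, so genotype cannot be told apart from either. Without knockout 3, 2 passed (Gpnmb and Lyz1), against 2.21% of all features. These comparisons share arrays, so they are not independent of each other.

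**Figure D4:**
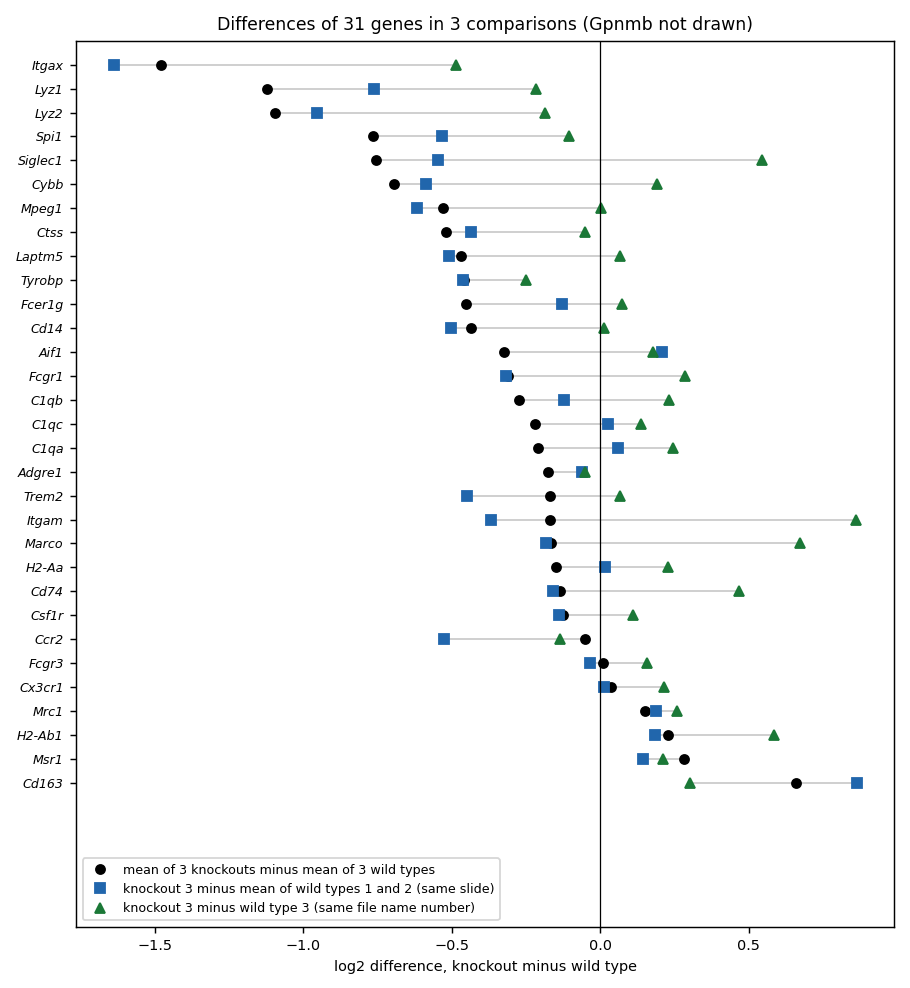
Differences of 31 genes (knockout minus wild type, log2, Gpnmb left out for scale) over all 6 arrays (circles), between knockout 3 and the mean of wild types 1 and 2 (squares) and between knockout 3 and wild type 3 (triangles). Most triangles lie right of the circles, and those of Itgax, Tyrobp, Lyz1, Lyz2 and Spi1 lie left of 0.

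Genes of the same cells and pathways outside the 34 were looked up in 14 lists. Alveolar macrophage genes had the lowest median of these lists (-0.59, 9 of 10 tested negative), and 1 fell, Chil3, a chitinase-like protein of lung macrophages. Chil3 read -1.08, -1.43 and -0.87 in knockouts 1, 2 and 3, against 0.16, 0.56 and 0.21 in wild types 1, 2 and 3, without overlap, a difference of -1.44 (SE 0.18, adjusted p = 0.0214). Spp1, the secreted protein osteopontin, differed by -1.40 (adjusted p = 0.108), with knockout 3 above wild type 3. Among 12 monocyte genes, 11 were negative (median -0.24) and 1 fell, Treml4, a receptor of patrolling monocytes and some dendritic cells. Treml4 read -3.51, -3.71 and -3.07 in knockouts 1, 2 and 3, against -1.53, -1.63 and -2.002 in wild types 1, 2 and 3, without overlap, a difference of -1.71 (SE 0.20, adjusted p = 0.0188). Without knockout 1, knockout 2, wild type 1 or wild type 2 both Chil3 and Treml4 missed the threshold (adjusted p from 0.0534 to 0.1), and both also missed it in fits blocked on slide (0.108 and 0.0624) or on file name number (0.674 and 0.404), and in a fit with a term for Y-linked signal (0.249 and 0.201). With no filter both missed it as well (limma adjusted p = 0.0926 and 0.086), and with a filter of 1 array above background Chil3 did (0.053). Cd300e, a receptor of the same monocytes, differed by -1.13 (adjusted p = 0.0589), and Plac8 by -0.92 (adjusted p = 0.117). Cd300e was above background in 1 of 3 knockouts and passed the filter through the wild types alone. Its difference ranged from -1.29 to -0.40 over the alternative settings.

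In the other 12 lists no gene passed. Pan-leukocyte genes were all negative (13 of 13, median -0.48), led by Itgb2, the integrin chain that pairs with Itgam and Itgax (-0.76, adjusted p = 0.0864), Ptprc, the CD45 phosphatase (-0.59), and Cd53 (-0.48). Their summed level was 17.5 to 21.1 on knockout arrays, against 20.4 to 28.3 on wild type arrays. Growth factors and their receptors had a median of -0.48 over 7 genes, with Il34 at -0.59, Csf2rb, a chain of the GM-CSF receptor, at -0.59 and Kitl at -0.34. For macrophage transcription factors the median was -0.24, with 12 of 14 negative. Cebpa (-0.65), Irf8 (-0.45) and Pparg (-0.32), a regulator of alveolar macrophages, had the smallest p of that list. Resident macrophage genes had a median of -0.16 (15 of 20 negative), with Tmem119 at -0.70, the chemokine Ccl6 at -0.77 and Mertk, a receptor for dying cells, at 0.40. NADPH oxidase subunits were negative in 5 of 5 (median -0.32), with Rac2 at -0.51, Ncf4 at -0.61 and Cyba at -0.30.

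Antigen presentation outside the 34 was close to 0 at the median. The class II list had a median of -0.044 (6 of 10 negative), with Ciita, the master activator of class II genes, at -0.65 (adjusted p = 0.186), Rfx5 at 0.34 and the protease Ctsl at 0.38. Dendritic cell genes had a median of -0.26 over 7 tested, with Zbtb46 at -0.32, Itgae at -0.46 and Cd40 at 0.23, and 4 genes of the list with a probe, Cd209a, Ccr7, Siglech and Cd80, were below background on all 6 arrays. The list of lysosomal enzymes, which also holds membrane proteins such as Lamp1 and Lamp2, had a median of 0.05 over 15 genes. Lamp1 was at -0.26, Hexa at -0.24 and Lamp2 at 0.16.

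**Figure D5:**
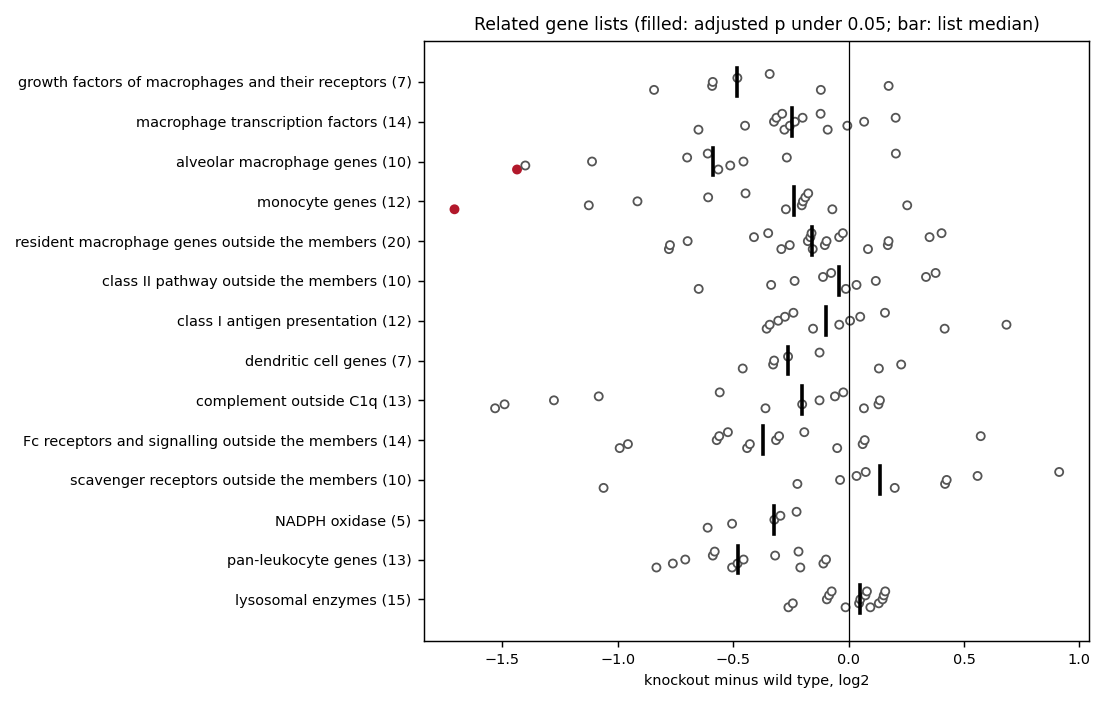
Difference of each tested gene (knockout minus wild type, log2) in the 14 related lists, with the number tested in parentheses, a bar at the list's median and filled points for the genes past the threshold. Chil3 and Treml4 are the 2 filled points, and the medians of the class II, class I and lysosomal enzyme lists lie near 0.

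Markers of other blood cells that a lung can hold were read beside these values. Neutrophil markers were negative in 9 of 9 tested genes (median -0.88), with S100a8, a subunit of calprotectin, at -0.98 (adjusted p = 0.0375) and Camp at -1.14. Their summed level was 14.7 to 18.9 times the 75th percentile on knockout arrays, against 23.6 to 36.4 on wild type arrays. Mast cell markers were negative in 6 of 6 (median -1.01), with Cma1 at -1.29. Mcpt4 was below background in all knockouts and passed the filter through the wild types alone (fitted limma adjusted p = 0.0499). With its knockout values raised to the lowest signal called above background on each array, it was 1.81-fold lower, again not a firm bound. With normexp Mcpt4 was at -0.54 and missed the threshold (adjusted p = 0.069). The mast cell markers' summed level was 9.80 to 12.5 on knockout arrays, against 15.6 to 22.3 on wild type arrays. Of 10 T, B and NK cell genes with a probe 5 were tested and 4 were negative, with Il7r, the interleukin-7 receptor, at -1.60 (adjusted p = 0.0375) and Ms4a1 at -2.52, and Cd79a and Ncr1 were below background on all 6 arrays. Il7r was above background in 1 of 3 knockouts, against 3 of 3 wild types, and with normexp it was at -0.41 and missed the threshold (adjusted p = 0.0971). Ms4a1 was above background in 2 of 3 knockouts, so both genes passed the filter through the wild types alone. The difference of Ms4a1 ranged from -3.14 to -0.75 over the alternative settings. The sum over these lymphocyte genes was 2.44 to 3.03 on knockout arrays, against 2.57 to 2.92 on wild type arrays. In each of the neutrophil, mast cell and lymphocyte sums 1 gene made up most of the level. For the lymphocyte sum it was the single gene with a positive difference (0.034), so these sums do not describe their lists as a whole. Among erythroid markers 1 of 9 rose, Hba-x, an embryonic globin (2.42, adjusted p = 0.0471), next to Hbb-y at 1.85. S100a8, Mcpt4, Il7r and Hba-x each missed the threshold without knockout 1, knockout 2, wild type 1 or wild type 2 (adjusted p from 0.0693 to 0.185), and Mcpt4 and Il7r also without knockout 3 (0.0662 and 0.0547). All 4 also missed it in the fits blocked on slide or file name number and in the fit with the Y-linked term (adjusted p from 0.0821 to 0.894). The same held with a filter of 1 array above background and with no filter (limma adjusted p from 0.0732 to 0.142). Hba-x also missed it with quantile normalization (0.0544) and the authors' deposited values (0.0552), and S100a8 with the deposited values (0.0504). The part of these cells in the values of the 32 genes, and in those of Chil3 and Treml4, was not tested.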

How the data were processed

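Gene expression was measured in 6 whole lungs, 3 knockout and 3 wild type, at E18.5, with 1 array each. Per the file headers, Agilent's Feature Extraction (version 10.7.3.1) read the arrays. The deposited intensity of a spot is background-subtracted and detrended within the array, with no scaling between arrays. The authors also deposited log2 values, for which the design text names GeneSpring GX 11 and no scaling. Set against the scanner files they correlated with quantile-normalized log2 intensities at 0.993 to 0.997 per array (slopes 0.985 to 0.994), were centred on the median of the wild types and had column medians of 0.0108, -0.00703 and -0.000876 for knockouts 1, 2 and 3, and 0 for each wild type. They served as an alternative.

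Probes were named by accession through a RefSeq gene table (GRCm38.p6), which gave a symbol to 26690 of 41174 probes (64.8%). The array design refers to mm9, so no probe coordinates are given. Spots flagged as outliers (77 to 110 per array) were left out, the 75th percentile of each array was subtracted from its log2 intensities, and a probe's spots were averaged. The filter kept probes with signal well above background in all 3 arrays of either group. A gene was its probe with the highest mean over 6 arrays. The group comparison used limma (version 3.58.1, R 4.3.3) over all 19867 features, two-sided, with Benjamini-Hochberg adjustment and no covariate. The script was tested on simulated data.

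The 34 genes and all lists were chosen with earlier results of these data known. Genes named outside the 34 were, per list, those past the threshold and otherwise the 3 of smallest p (2 for lists of other cell types), and others are named as members below background or as checks. The number of arrays limits the precision. Same-numbered knockout and wild type arrays deviated from their group means with correlations of -0.0203, 0.0415 and 0.0268, so these deviations showed no pairing by number. Yet knockout 3 and wild type 3 were the closest arrays across the groups. The standard deviation of their log2 differences over all features was 0.386, against 0.496 to 0.623 for other such pairs. Within the groups knockout 3 was at 0.407 and 0.412, and wild type 3 at 0.424 and 0.421. Alternatives covered scaling, background, filter, probe choice, slide, file name number, sex, replicate number and single arrays left out. The files hold no mean spot signal, so the median spot signal was used for normexp, a model-based background correction.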

Additional observations from a re-analysis of the deposited data

How the results depend on the processing

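The number of all features past the threshold, 267, and of the 32 genes, 1, moved with many settings. Over all features 96 passed with a filter of 1 array above background, 28 with no filter (0 of the 32 genes), 24 with the slide as a block, 26 with a term for the arrays with Y-linked signal (0 of the 32), 5 in a fit blocked on the file name number (0 of the 32, median difference 0.15 against -0.25) and 0 over the 4 arrays with Xist (1378 at an unadjusted p under 0.05, by limma, 0 of the 32). With a filter of all 6 arrays, which leaves Gpnmb untested, 0 of 31 genes passed. With normexp on each array's median background, chosen after seeing the data because normexp on each spot's own background could not be fitted on knockout 3, 2 passed (Gpnmb and Lyz1). The replicate number as a block gave 55 features, with Gpnmb still past the threshold, and among the genes called outside the 34, Il7r passed while Chil3, Treml4, S100a8, Mcpt4 and Hba-x missed it (adjusted p from 0.0684 to 0.0936). Leaving out knockout 1, 2 or 3 gave 59, 80 and 440 features, and leaving out wild type 1, 2 or 3 gave 34, 55 and 1972, with 0 to 11 of the 32 genes and a median of -0.42 to -0.17. The fit without wild type 3 has no wild type of the knockouts' sex. Median scaling moved the median of all probes to -0.11 (main setting 0.020), and the split was 88 higher and 230 lower.

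Gpnmb passed in 11 of the 18 alternatives that tested it. Its difference was smallest with normexp (-1.19, adjusted p = 0.0337), and it missed the threshold with no filter (adjusted p = 0.08), with the file name number (0.0872), with the Y-linked term (0.224), on the arrays with Xist (0.405) and without knockout 1, wild type 1 or wild type 2.

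Some differences changed sign. Median scaling gave Fcgr3 -0.12 and Cx3cr1 -0.096, quantile normalization -0.00031 and -0.033, the authors' deposited values -0.0062 and -0.043, and normexp Fcgr3 -0.0049. The mean of a gene's probes gave Adgre1 0.015. The slide as a block gave C1qa 0.059, C1qc 0.026, H2-Aa 0.016, Fcgr3 -0.035 and Aif1 0.21. The file name number as a block, which compares knockout 3 with wild type 3 alone, gave C1qa 0.25, C1qb 0.23, C1qc 0.14, Marco 0.67, Cd74 0.47, H2-Aa 0.23, Fcgr1 0.28, Fcer1g 0.072, Trem2 0.068, Csf1r 0.11, Cd14 0.014, Siglec1 0.55, Itgam 0.86, Laptm5 0.066, Mpeg1 0.0042, Aif1 0.18, Cybb 0.19, Csf2rb 0.019, Spp1 0.14, Cfb 0.019, Lamp1 0.022, Lamp2 -0.15, Hexa 0.017, Sftpb 0.099 and Napsa 0.079. The Y-linked term and the arrays with Xist both gave Marco 0.41, Cd74 0.28, Fcgr1 0.091, Trem2 0.17, Csf1r 0.041, Ccr2 0.21, Itgam 0.65 and Lamp2 -0.022. Leaving out 1 array gave ranges of -0.049 to 0.14 for Cx3cr1, -0.34 to 0.064 for Cd74, -0.055 to 0.11 for Fcgr3, -0.58 to 0.057 for Itgam, -0.18 to 0.12 for Ccr2, -0.27 to 0.043 for H2-Aa and -0.45 to 0.022 for Marco. The cause was not tested in any of these. With 3 arrays per group, signal near background limits Gpnmb, Siglec1, Itgam and Spi1, and low signal in the knockouts limits Itgax. With normexp Spi1 was at -0.45, against -0.77 in the main setting.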

Other observations

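Complement outside C1q held some wider differences than the C1q chains, although no gene passed. C3, the central complement protein, read 2.94, 2.48 and 3.24 in knockouts 1, 2 and 3, against 4.70, 4.85 and 3.70 in wild types 1, 2 and 3, with no overlap, and differed by -1.53 (SE 0.33, limma adjusted p = 0.0644). C4b, of the classical pathway, differed by -1.28 (adjusted p = 0.0854) and Cfb, of the alternative pathway, by -1.49 (adjusted p = 0.0988), while knockout 3 and wild type 3 had nearly the same Cfb level (-1.66 and -1.68). Of 13 tested genes of this list 10 were negative, with a median of -0.20. Scavenger receptors outside the 34 leaned the other way, as did those within it, with 7 of 10 positive and a median of 0.14. Stab2, a clearance receptor of endothelial cells, read -0.22, 0.39 and -0.28 in knockouts 1, 2 and 3, against -0.93, -1.12 and -0.79 in wild types 1, 2 and 3, again with no overlap, and differed by 0.91 (adjusted p = 0.0655), next to Scarf2 at 0.42 and Olr1, a receptor for oxidised lipoprotein, at -1.06.

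Class I antigen presentation held differences of both signs, with a median of -0.097 over 12 genes. Tap2, a peptide transporter, differed by 0.68 and Erap1, a peptide-trimming protease, by 0.42, both higher in all 3 knockouts, and Psme1, a proteasome activator, by -0.34, lower in all 3 (adjusted p = 0.112, 0.0902 and 0.114). Among 14 Fc receptor and signalling genes, 11 were negative (median -0.37), with the kinase Fgr at -0.96 and Trem1, an amplifying receptor of neutrophils and monocytes, at -0.99. Fcgr2b, the inhibitory Fc receptor, was higher in all 3 knockouts (0.57, adjusted p = 0.112). Krt79, the third gene by p of the alveolar macrophage list, differed by -0.46. Checks of other cell types gave Sftpb -0.48, Napsa -0.27, Scgb1a1 -1.73, Dct 0.38 and Sox10 0.45, and none of these passed.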
